A study of Homo sapiens with 6 samples.

Results

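The Kruppel-like factors are transcription factors that share zinc fingers near the end of the protein and bind GC-rich and CACCC sequences. The 10 genes examined here were KLF2, KLF4, KLF5, KLF6, KLF7, KLF9, KLF10, KLF11, KLF12 and KLF13, of 19775 genes with a probe set of a single symbol. They were taken by symbol from the family, with earlier results of these data known. This gave 36 probe sets, the short groups of probes that together read out a transcript. RNA was profiled in IMR32, an established human neuroblastoma line, on 6 Affymetrix arrays. The 3 teriflunomide arrays came from cells given 118 µM of the drug for 24 h, and the 3 DMSO arrays came from cells given 0.1% DMSO for the same time. Both began 12 h after seeding, and whether the drug wells also held DMSO was not stated. Teriflunomide inhibits DHODH, a mitochondrial enzyme of pyrimidine synthesis. All samples are of 1 cell line. The labels call the replicates biological but name no separate cultures, so the p-values reflect array-to-array spread that could be technical.

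Family members differ mainly outside the zinc fingers, in the parts that recruit other proteins. KLF2, KLF4, KLF5, KLF6 and KLF7 are mostly activators. KLF9, KLF10, KLF11 and KLF13 carry a domain that binds the corepressor SIN3A, and KLF12, like KLF3 and KLF8, recruits the corepressor CtBP. Several are induced within hours of a stimulus such as growth factors, stress, hormones or TGF-beta. In neurons, individual members are known to promote or restrain axon growth and maturation.

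With teriflunomide, KLF4 rose 22.4-fold, KLF9 rose 2.87-fold, KLF5 rose 2.73-fold, KLF10 rose 1.91-fold and KLF6 rose 1.46-fold. KLF12 fell to 45.3% of its DMSO level, KLF13 to 59.0% and KLF7, on its brightest probe set, to 63.0%. The KLF7 probe sets disagree, and its call is counted below only as that of its brightest one. KLF2 was at background and KLF11 was not called. In bulk RNA, a change in the share of cells that express a gene and a change in RNA per cell cannot be told apart. Of the 10 genes, 5 were called higher and 3 lower by limma at an adjusted p under 0.05, where 29.7% of all 11998 genes tested were called higher and 28.9% lower. Calls were common on these arrays, with 58.6% of all genes called in one direction or the other. The sizes of the changes therefore say more about these members than their number of calls. At least 2-fold, 3 members were higher and 1 was lower, where 5.24% and 4.53% of all genes were (9.77% together). The median size of change, regardless of sign, was 0.85 on the log2 scale for the members and 0.29 for all genes. No test was made of this description, and the members were chosen with earlier results of these data known. For 8 of the members the 2 groups of arrays did not overlap, which held for 67% of all genes.

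By mode of action, 3 of the 5 activators rose, namely KLF4, KLF5 and KLF6, while KLF2 did not pass and KLF7 had calls in both directions among its probe sets. Of the 4 members that bind SIN3A, 2 rose, 1 fell and 1 did not pass, and the CtBP-binding member KLF12 fell. Of all genes tested, 29.7% were called higher and 28.9% lower. With so few members of each kind, these counts show no pattern by mode of action.

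**Figure D1:**
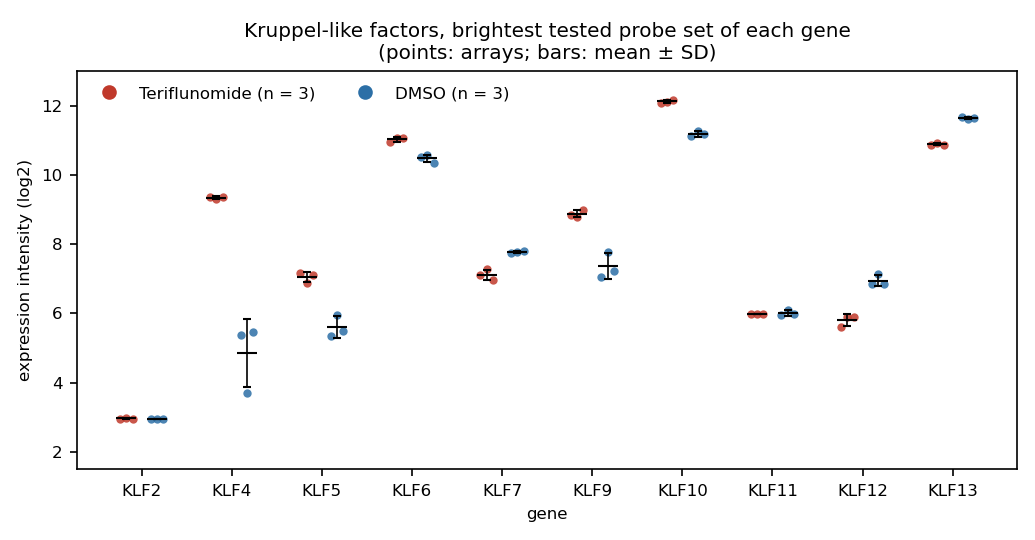
Expression intensity (log2, vertical axis) of the 10 genes on the brightest tested probe set of each, with a point for each of the 3 teriflunomide arrays (red, left) and the 3 DMSO arrays (blue, right) and bars for mean ± SD. The KLF4 teriflunomide arrays lie between 9.29 and 9.37, all above the DMSO arrays, the KLF12, KLF13 and KLF7 teriflunomide arrays lie below their DMSO arrays, and KLF2 and KLF11 overlap.

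The sequence upstream of the start is shown for 3 members that rose and 1 that fell. These are the called members with a single window among those read from the RefSeq promoter table (GRCh38.p14). Windows were read for 9 of the 10 members, 17 in all, 5 members having 1 window each. KLF10, which rose, was left out of that reading, so its upstream sequence was not searched. The other member with 1 window, KLF2, was at background and its window is not shown. Each line gives the 250 bases before the annotated start, 5′ to 3′ on the gene's strand. Capitals mark, on either strand, the GC box GGGCGG, the CACCC box CACCC, the cAMP response element half-site TGACG, the E-box CACGTG and the CCAAT box CCAAT.
KLF4, chr9:107489770-107490019, minus strand: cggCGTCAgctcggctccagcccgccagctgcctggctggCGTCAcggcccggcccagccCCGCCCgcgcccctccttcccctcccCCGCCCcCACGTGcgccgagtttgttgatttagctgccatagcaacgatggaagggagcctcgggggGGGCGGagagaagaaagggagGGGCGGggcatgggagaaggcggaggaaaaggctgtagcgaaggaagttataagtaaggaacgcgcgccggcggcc
KLF6, chr10:3785210-3785459, minus strand: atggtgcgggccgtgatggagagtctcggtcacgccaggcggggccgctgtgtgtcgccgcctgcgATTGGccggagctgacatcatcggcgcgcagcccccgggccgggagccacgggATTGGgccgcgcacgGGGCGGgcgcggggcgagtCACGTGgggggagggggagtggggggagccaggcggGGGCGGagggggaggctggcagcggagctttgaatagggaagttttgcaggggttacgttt
KLF9, chr9:70414658-70414907, minus strand: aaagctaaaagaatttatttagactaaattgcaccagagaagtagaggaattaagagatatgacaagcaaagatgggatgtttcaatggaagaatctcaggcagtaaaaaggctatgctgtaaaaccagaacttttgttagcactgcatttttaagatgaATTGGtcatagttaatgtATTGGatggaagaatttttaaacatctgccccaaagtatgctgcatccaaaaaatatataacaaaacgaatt
KLF13, chr15:31326585-31326834, plus strand: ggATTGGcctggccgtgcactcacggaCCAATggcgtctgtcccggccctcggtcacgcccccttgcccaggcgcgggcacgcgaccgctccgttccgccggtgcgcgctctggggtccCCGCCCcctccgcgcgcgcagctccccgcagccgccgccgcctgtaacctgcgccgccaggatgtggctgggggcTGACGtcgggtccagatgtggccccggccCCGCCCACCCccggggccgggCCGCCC

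The KLF4 window held 4 GC boxes, 2 cAMP response element half-sites and 1 E-box. KLF6 held 2 GC boxes, 1 E-box and 2 CCAAT boxes. KLF13, which fell, held 3 GC boxes, 1 CACCC box that overlaps one of them 22 bases before the start, 1 cAMP response element half-site and 2 CCAAT boxes. The KLF9 window is of another kind, with 32.4% G and C against a median of 58.0% over all 35116 windows, 2 CCAAT boxes and none of the other capitals. GC content was 69.2% for KLF4, 72.4% for KLF6 and 78.8% for KLF13. Over all windows of this length, 42.6% held a GC box, 54.7% a CACCC box, 21.2% a cAMP response element half-site, 6.34% an E-box and 32.0% a CCAAT box.

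Longer sites of stress and growth signalling were also searched on both strands in these 4 windows. The full cAMP response element TGACGTCA, the composite site of CHOP and ATF proteins TGATGNAA and the antioxidant response element TGACNNNGC were found in none of the 4, and neither was the MEF2 site or the CArG box bound by SRF. These sites were held by 1.65%, 3.14%, 10.9%, 2.8% and 1.16% of all windows in that order. Among the other windows read for the family, the KLF2 window held a MEF2 site 120 bases before the start. In addition, 1 KLF11 window held the full cAMP response element and 1 KLF7 window held a CArG box. The KLF12 windows held 1 MEF2 site and, 20 bases before another start, 1 composite site of CHOP and ATF. The full cAMP response element includes the half-site. The letters in a window do not show whether a factor binds there or elsewhere.

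KLF4, one of the factors used to reprogramme cells to pluripotency and a regulator of growth arrest, changed most. Its intensity was 9.37, 9.29 and 9.36 on the teriflunomide arrays, against 5.39, 3.71 and 5.48 on the DMSO arrays (log2). The drug arrays agreed closely and the DMSO arrays did not, with one of them well below the others. The means were 9.34 ± 0.04 with teriflunomide and 4.86 ± 0.99 with DMSO (SD, n = 3 each). The change on the log2 scale was 4.48 (SE 0.49, limma adjusted p = 0.000818), the 18th largest rise of the 11998 genes. The DMSO level lay near the background, so the size of the rise depends on how low that level is taken to be. It was 3.91 without DMSO replicate 2, the low array, and 4.05 with values under log2 5 raised to 5. The other KLF4 probe set was near the lowest value of the arrays throughout, at 2.54 with teriflunomide and 2.19 with DMSO, and was not tested.

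KLF5, an activator that drives proliferation in many epithelia, had intensities of 7.17, 6.88 and 7.10 on the teriflunomide arrays, against 5.35, 5.97 and 5.49 on the DMSO arrays (log2). Every drug array was above every DMSO array. The change on the log2 scale was 1.45 (SE 0.18, limma adjusted p = 0.00121). A dimmer KLF5 probe set stood at 3.12 with teriflunomide and 2.69 with DMSO and rose by 0.42 (SE 0.12, adjusted p = 0.0313 by limma over the 27290 probe sets tested). That second call did not hold without teriflunomide replicate 1, 2 or 3 or DMSO replicate 3, where the change was 0.46, 0.44, 0.37 and 0.47 in that order, nor with no filter on dim probe sets (adjusted p = 0.106), on the poly-A spike scaling (0.34) or with values under log2 5 raised to 5. As the mean of both probe sets KLF5 rose by 0.94.

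KLF6, a widely expressed member that responds early to injury and stress, was bright in both groups and was read by 4 tested probe sets. On the brightest, the intensities were 10.95, 11.06 and 11.08 on the teriflunomide arrays, against 10.51, 10.58 and 10.36 on the DMSO arrays (log2). On each of the 4, every drug array was above every DMSO array. The changes were small and close to each other, at 0.55, 0.56, 0.59 and 0.64 on the log2 scale, with SE between 0.04 and 0.09. For the gene, the change on the log2 scale was 0.55 (SE 0.07, limma adjusted p = 0.00136). The fifth KLF6 probe set was near the lowest value on all arrays and was not tested.

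KLF7, a neuronal member with a role in axon outgrowth, was the only one whose probe sets were called in both directions. On the brightest, intensities were 7.10, 7.27 and 6.97 on the teriflunomide arrays, against 7.74, 7.78 and 7.82 on the DMSO arrays (log2), a log2 fold change of -0.67 (SE 0.08, limma adjusted p = 0.00116). On the next brightest the means were 6.10 with teriflunomide and 7.40 with DMSO, a change of -1.30 (SE 0.08). On the third in brightness the arrays overlapped and the change was 0.15 (SE 0.13, limma adjusted p = 0.378). The dimmest tested probe set went the other way, with 5.15, 4.83 and 4.65 on the teriflunomide arrays and 3.36, 3.59 and 3.67 on the DMSO arrays. Its change was 1.34 (SE 0.15, limma adjusted p = 0.00146), and it became 0.05, without a call, when values under log2 5 were raised to 5.

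The disagreement between KLF7 probe sets was larger than the spread between arrays. The level of the dimmest minus that of the brightest within an array was -2.24 ± 0.26 with teriflunomide and -4.24 ± 0.12 with DMSO (log2, SD, n = 3 each). Against the second brightest, the most opposed pair, it was -1.22 ± 0.25 with teriflunomide and -3.86 ± 0.12 with DMSO. Both pairs were chosen after their changes were seen. The differences between the groups, 2.00 and 2.64, each gave an exact two-sided permutation p of 0.1, the smallest that 3 arrays against 3 allow. As the mean of its 4 tested probe sets KLF7 changed by -0.12 and was not called (limma adjusted p = 0.237). No direction for the gene as a whole is therefore given here. Of the 6081 genes with at least 2 tested probe sets, 508 had calls in both directions, or 8.35%.

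**Figure D2:**
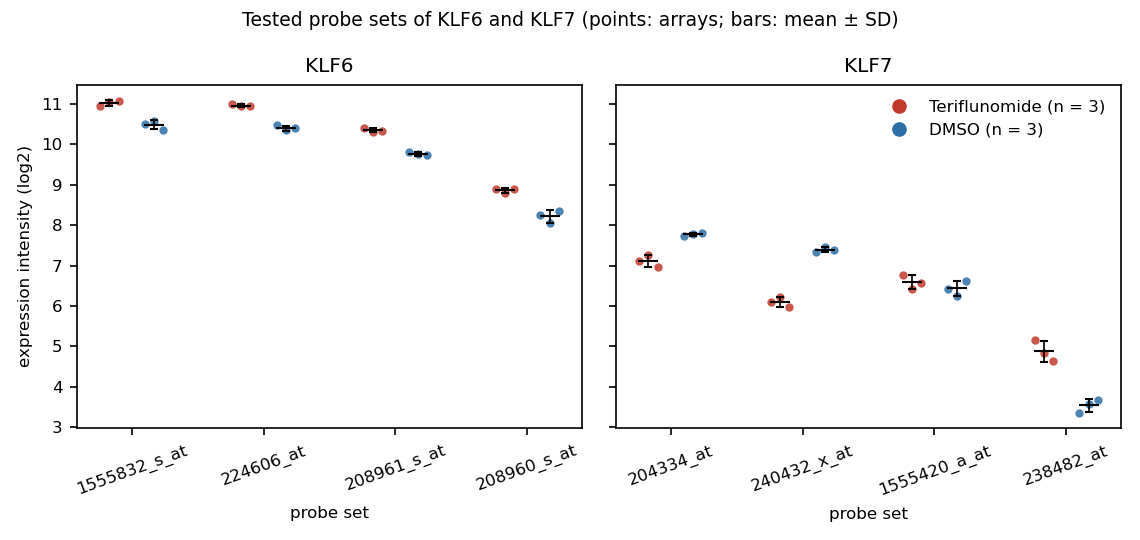
Expression intensity (log2, vertical axis) of the tested probe sets of KLF6 (left panel) and KLF7 (right panel), with teriflunomide arrays in red left of DMSO arrays in blue and bars for mean ± SD (n = 3 each). The 4 KLF6 probe sets run the same way, with changes of 0.55 to 0.64, while the KLF7 probe sets run from -1.30 to 1.34.

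KLF2, a regulator of endothelial and T cell quiescence, was at background. Its tested probe set had the same value, 2.96, on 5 of the 6 arrays, and its other probe set stayed at 2.18, the lowest value, on all of them. The change of 0.0079 (95% interval -0.06 to 0.07, limma adjusted p = 0.818) is that of a probe set without signal and does not show that KLF2 stayed the same.

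KLF9, a member induced by glucocorticoids and thyroid hormone and linked to neuronal maturation, had intensities of 8.86, 8.79 and 8.99 on the teriflunomide arrays, against 7.07, 7.78 and 7.23 on the DMSO arrays (log2). The lowest drug array was clear of the highest DMSO array. The change was 1.52 on the log2 scale (SE 0.19, limma adjusted p = 0.00140). A second probe set gave almost the same change at a lower level, 7.30 ± 0.08 with teriflunomide and 5.77 ± 0.25 with DMSO (SD, n = 3 each), a difference of 1.53 (SE 0.14). The remaining 3 KLF9 probe sets were at that lowest value on all 6 arrays.

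KLF10, named TIEG1 as an early target of TGF-beta, was bright in both groups. Intensities were 12.10, 12.12 and 12.17 on the teriflunomide arrays, against 11.12, 11.28 and 11.19 on the DMSO arrays (log2). The change on the log2 scale was 0.93 (SE 0.05, limma adjusted p = 9.0e-05), on the only probe set of the gene.

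KLF11, its close relative and a transcriptional repressor, was not called. The tested probe set had 1 value, 5.99, on all 3 teriflunomide arrays and on DMSO replicate 3, while the other DMSO arrays stood at 5.94 and 6.10. The change was -0.02 (95% interval -0.14 to 0.10, limma adjusted p = 0.723). With 1 value repeated to 6 decimals on 4 arrays, the spread between arrays cannot be judged. Such repeats, on at least 3 arrays, were found for 6.42% of all genes tested and for 2 of the 10 members, KLF2 and KLF11.

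KLF13, known in T cells as an activator of the chemokine gene CCL5, was bright and fell. Intensities were 10.87, 10.93 and 10.88 on the teriflunomide arrays, against 11.68, 11.61 and 11.66 on the DMSO arrays (log2). The arrays within each group agreed closely and the groups were well apart. The change on the log2 scale was -0.76 (SE 0.04, limma adjusted p = 5.8e-05). A dimmer probe set changed by -0.95 (SE 0.20, limma adjusted p = 0.0131), with 6.89, 7.004 and 6.49 on the teriflunomide arrays and 7.63, 7.52 and 8.07 on the DMSO arrays. That dimmer call was lost with no filter on dim probe sets (adjusted p = 0.0541).

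KLF12, a CtBP-recruiting repressor first described at the AP-2 alpha gene, had intensities of 5.60, 5.90 and 5.91 on the teriflunomide arrays, against 6.84, 7.13 and 6.86 on the DMSO arrays (log2). All drug arrays were below all DMSO arrays, and the change on the log2 scale was -1.14 (SE 0.12, limma adjusted p = 0.000753). The fall rests on 1 of its 8 probe sets. The other 2 that were tested, at 0.13 and -0.07, stood under log2 3.2 on every array and did not pass. The mean of the 3 tested probe sets changed by -0.36.

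Over all tested probe sets, 11 of 21 were called higher and 5 lower by limma, where 23.7% and 25.2% of all 27290 probe sets were (48.8% together). For 16 of the 21 the groups did not overlap, as for 60% of all probe sets. The other 15 of the 36 were below the filter, and 8 of these had the lowest value of the arrays on all 6. Of the 6 members with several tested probe sets, 4 had at least 2 calls that all ran one way, namely KLF5, KLF6, KLF9 and KLF13. The share of all genes that did so was not counted, so this is not read as a trait of the family. For KLF5 and KLF13 it includes their dimmer calls, which did not hold under every setting.

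**Figure D3:**
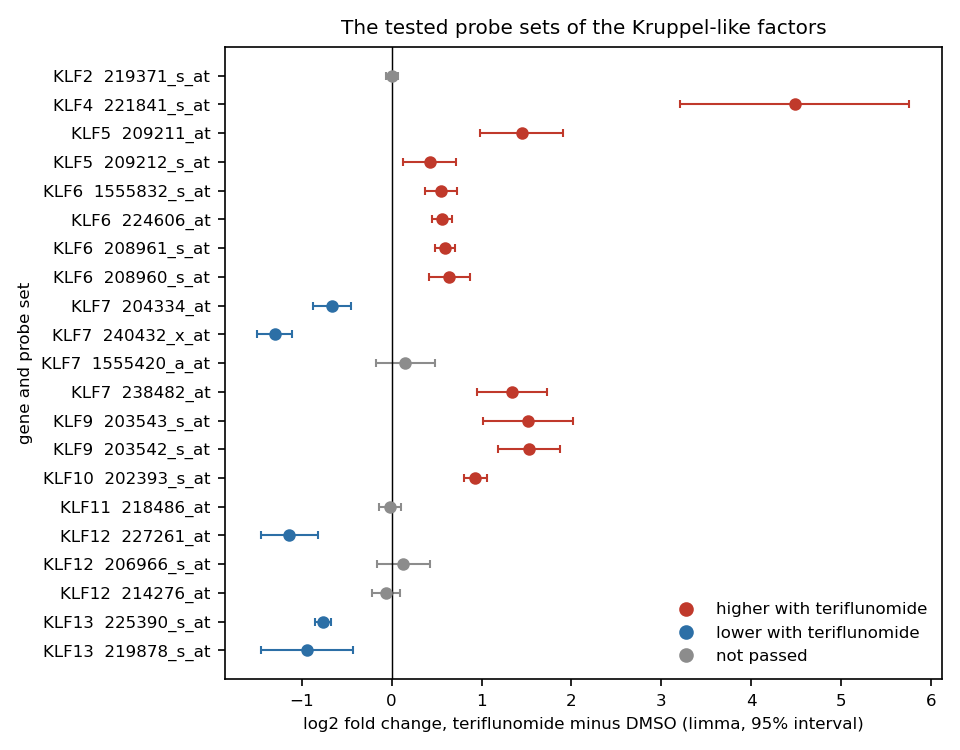
Log2 fold change, teriflunomide minus DMSO (horizontal axis, limma, with 95% intervals), of the 21 tested probe sets of the family, ordered by gene. Probe sets called higher are red, lower are blue and not passed are grey. The KLF6 probe sets lie close together, as do the KLF9 ones, KLF7 probe sets lie on both sides of 0, and KLF4 stands at 4.48.

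**Figure D4:**
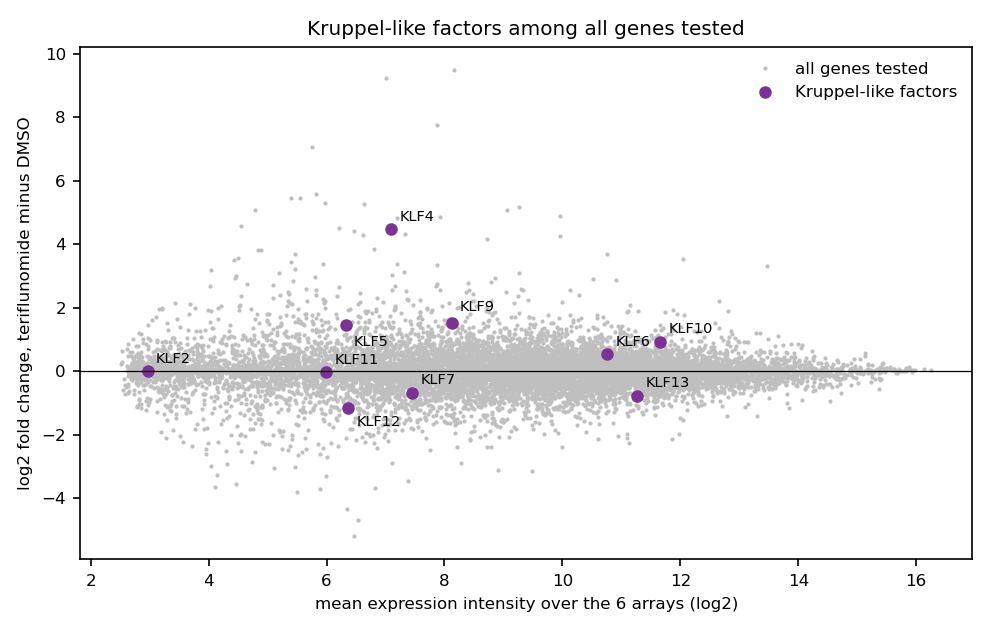
Log2 fold change, teriflunomide minus DMSO (vertical axis), against mean intensity over the 6 arrays (log2, horizontal axis) for the 11998 genes tested (grey) and the 10 Kruppel-like factors (purple). KLF4 lies high above the bulk of genes at its intensity, while KLF2 sits at the dim end at 0.0079.

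Of 7 other genes of the family, 3 were tested and 4 (KLF1, KLF8, KLF14 and KLF17) lay close to the lowest value of the arrays. KLF15, a metabolic regulator induced by glucocorticoids, rose by 0.66 (SE 0.06, limma adjusted p = 0.00043). KLF16, a SIN3A-binding repressor, changed by -0.66 (SE 0.09, limma adjusted p = 0.00171). KLF15 and KLF16 each had a dimmer tested probe set that did not pass, at -0.012 and -0.0097 in that order. KLF3, a CtBP-recruiting repressor, was called lower on its brightest probe set, at -0.19 (SE 0.05, limma adjusted p = 0.0208), a call lost without teriflunomide replicate 1 or 2 or DMSO replicate 1 or 2. Its other 3 probe sets were called higher, at 1.25, 1.76 and 0.97, and as the mean of all 4 it rose by 0.95, so the direction of KLF3 depends on the probe set.

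The SP factors, the closest relatives of the family, share its zinc fingers and compete for GC boxes. Of the 4 tested, SP1, SP2, SP3 and SP4, limma called 0 in either direction, and 0 had an unadjusted p under 0.05. Their changes lay between -0.10 and 0.13 on the log2 scale, and their median was 0.02, while that of all genes was 0.0015. SP2 passed without teriflunomide replicate 1 (-0.15) and SP3 without DMSO replicate 2 (0.10).

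Of 12 listed co-regulators, 10 were tested, 2 rose and 3 fell, and the median change was -0.04 on the log2 scale. Of all genes tested, 29.7% were called higher and 28.9% lower, the shares to set beside this list and those below. SIN3A, the corepressor that KLF9, KLF10, KLF11 and KLF13 bind, changed by -1.61 on its brightest probe set (SE 0.06), with 8.67, 8.89 and 8.86 on the teriflunomide arrays and 10.40, 10.41 and 10.43 on the DMSO arrays. Another SIN3A probe set changed by -2.06, while the remaining tested one, also bright, rose by 0.36, so its probe sets disagree. HDAC1, a deacetylase of SIN3A complexes, changed by -0.44 and CTBP2, a CtBP corepressor, by -0.24. KAT2B, an acetyltransferase, rose by 0.54. HDAC3 rose by 0.17, a call lost without teriflunomide replicate 2 (0.20) or any single DMSO array (0.16 to 0.18). Separately, it was also lost with no filter, with the floor at log2 5 and with each other scaling of the arrays.

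The kinase ERK5 and its MEF2 substrates are a known route to KLF2 and KLF4. Of 8 listed genes, 6 were tested, 3 rose, 1 fell and the median was 0.12. MEF2A rose by 0.48 (SE 0.05) and MAP3K2, a kinase at the top of the route, by 0.37 on its brightest probe set. The second brightest MAP3K2 probe set was called lower, at -0.46, and 2 dimmer ones higher, at 0.66 and 0.49, so its probe sets disagree. MEF2D rose by 0.26, but did not pass when arrays were centred on poly-A spikes (0.18). MAP3K3 changed by -0.22, and by -0.19 without a call as the mean of its probe sets. ERK5 itself, encoded by MAPK7, did not pass at -0.15 (limma adjusted p = 0.0835).

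Of 11 genes of TGF-beta, glucocorticoid and thyroid hormone signalling, known inducers of KLF9 and KLF10, 9 were tested, 2 rose and 4 fell, with a median of -0.04. NR3C1, the glucocorticoid receptor, rose by 1.20 (SE 0.08), with 10.66, 10.49 and 10.66 on the teriflunomide arrays and 9.33, 9.35 and 9.53 on the DMSO arrays. TGFBR2, a TGF-beta receptor, rose by 1.08 (SE 0.12). SMAD3, a transducer of TGF-beta signals, changed by -0.54 and SMAD2, another, by -0.28 on its brightest probe set. Other SMAD2 probe sets were called lower, at -0.59 and -0.30, or higher, at 0.74 and 0.34, so its probe sets disagree. The call on the brightest SMAD2 probe set was lost without DMSO replicate 3 (-0.25) and with no filter on dim probe sets (limma adjusted p = 0.0508). The ligand gene TGFB3 was dim and changed by -0.57, which became 0 when values under log2 5 were raised to 5.

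Of 6 ubiquitin ligases that act on family members, 5 were tested, 1 rose and 1 fell. SIAH1, which targets KLF10 for degradation, rose by 0.53 (SE 0.05) on its brightest probe set and by 0.33 on another, while its dim probe set, at -0.23, did not pass. SMURF1 changed by -0.20, and by -0.13 without a call as the mean of its probe sets. Of 16 genes described as direct targets of family members in other cells, 9 were tested, 5 rose and 1 fell, with a median of 0.24. The shares of all genes called were 29.7% higher and 28.9% lower. CDKN1A, the cell cycle inhibitor p21 and a target of KLF4 and KLF6, rose by 1.40 (SE 0.08, limma adjusted p = 0.000112). L1CAM, a neuronal adhesion gene, rose by 0.61 and CCND1, encoding cyclin D1, by 0.60. CCNB1, encoding cyclin B1, changed by -0.78. The 6 targets below the filter included CCL5, THBD, NOS3 and S1PR1, which lay close to the lowest value of the arrays.

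**Figure D5:**
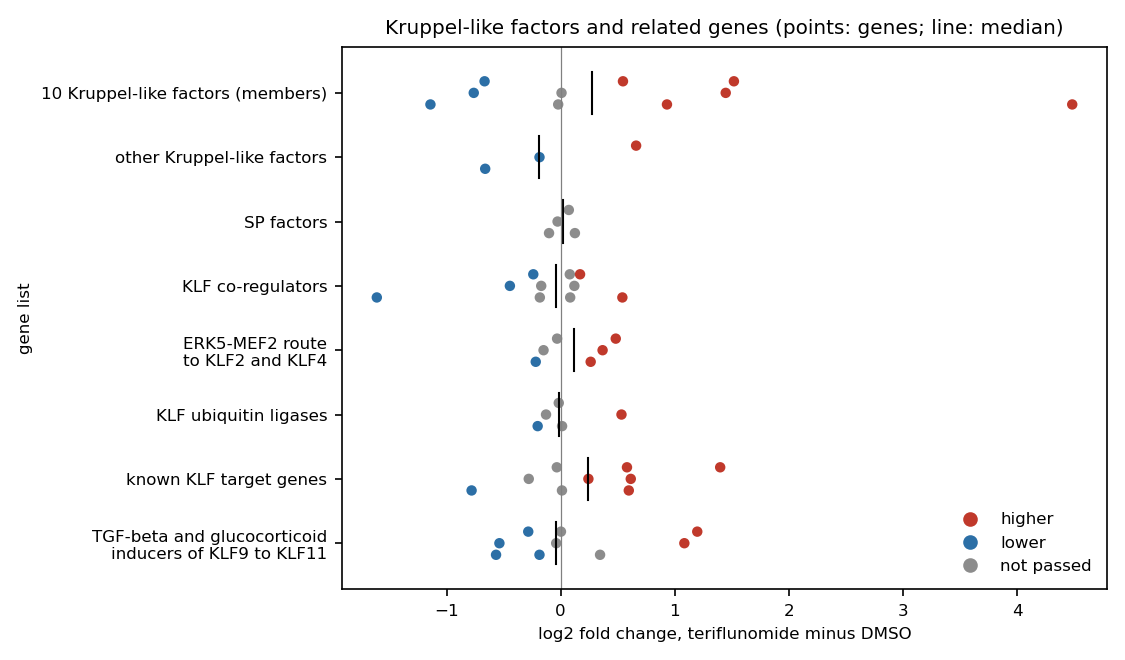
Log2 fold change, teriflunomide minus DMSO (horizontal axis), of the 10 members and of the tested genes of 7 related lists (rows), coloured by limma call, with a line at each median. The members spread from -1.14 to 4.48, while the 4 SP factors lie between -0.10 and 0.13.

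The array medians lay between 2.63 and 2.66 (log2). The processing of the deposited values forces 1 distribution on all arrays, so these medians do not show equal depth of signal. Pearson's r over all probe sets (not independent points) was 0.998 to 0.999 within groups and 0.989 to 0.990 between them. The ACTB 3' minus 5' control signal, which reflects the length of RNA or labelled target, was 1.62 ± 0.07 with teriflunomide and 1.36 ± 0.03 with DMSO (log2, SD, n = 3 each, exact permutation p = 0.1, the smallest possible). The same measure for GAPDH was 0.063 ± 0.021 with teriflunomide and 0.049 ± 0.0060 with DMSO (exact permutation p = 0.4). The part of the ACTB shift in the changes above was not tested.

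Of the 10 neuroblastoma markers 7 were tested, 3 rose and 1 fell. PHOX2A rose by 0.76, GATA3 by 0.35 and ISL1 by 0.22, MYCN changed by -0.43, and GATA2 did not pass at -0.08. Over the 6 arrays MYCN, GATA2, GATA3 and PHOX2A had means of 14.9, 13.4, 13.4 and 12.3, while TH and DBH, enzymes of catecholamine synthesis, were at or near background. Summed over the 8 markers with a probe set, the level was 15.75 to 15.83 with teriflunomide and 15.89 to 15.94 with DMSO (log2 of the summed intensities). MYCN, the brightest of the 8, weighs most in that sum, so the sum does not stand for the markers as a set.

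Of 4 fibroblast or Schwann cell markers with a probe set 3 were tested and 1 rose. COL1A1, a collagen gene, rose by 0.94, with means of 11.75 with teriflunomide and 10.81 with DMSO. COL3A1, another collagen gene, was also bright, at 10.93 with teriflunomide and 10.56 with DMSO, and did not pass at 0.37. PDGFRB was at 5.22 in both groups and SOX10 was at background. The summed level of the 4 was 12.34 to 12.48 with teriflunomide and 11.65 to 11.74 with DMSO, a shift whose part in the changes above was not tested. Of the 8 listed blood and endothelial markers, 6 had a probe set and 0 passed the filter, with a highest mean of 2.22 (VWF). Of the 4 epithelial markers 1 was tested, EPCAM, which was dim and did not pass at 0.02.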

How the data were processed

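The authors deposited log2 expression intensities for 54675 probe sets. Per the submitters' processing notes they used GCRMA, whose version is not given in the sources used here. GCRMA models background from probe sequence and forces 1 distribution on all arrays, so dim values collapse onto repeated floors and a shift of all genes would not show. Genes were named through the platform annotation (41097 probe sets with 1 symbol, 1801 with several and 11777 with none, the last 2 kinds left out of gene tests). Of the single-symbol probe sets, 41043 matched a GRCh38.p14 gene table by gene identifier and 0 symbols changed.

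Probe sets entered the test if they reached the array median on 3 or more of the 6 arrays, and control probe sets were left out. The brightest stood for its gene. Groups were compared with limma 3.58.1 (R 4.3.3, lmFit and eBayes), two-sided, with Benjamini-Hochberg adjustment over all 11998 genes, or over all 27290 probe sets for single probe sets, at 0.05. The script was checked on simulated data. Python 3.11.15 read promoters and drew figures. Arrays give no read depth, and their number limits the precision.

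The text names all members, other family genes and, of each related list, up to 3 called genes in each direction with the largest change. The SP factors, ERK5 (MAPK7), CREBBP, SMAD4, FBXW7, GAP43, CDKN1B, cell markers and targets below the filter were added after their values were seen. Members, lists and tests were chosen with earlier results of these data known. Alternatives tried were other filters, scalings, a floor, other choices of probe set, variance models, array weights, a replicate block and leaving out each array.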

Additional observations from a re-analysis of the deposited data

How the results depend on the processing

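For the 10 members, 164 of 165 alternative values kept the call or the lack of one. The exception was KLF7, at -0.12 and not called as the mean of its probe sets. The uncalled members changed sign, KLF2 ranging from -0.07 to 0.02 and KLF11 from -0.10 to 0.02. A member not tested under a setting gave no value there. With the filter at the 75th percentile, which fewer probe sets passed, 4 members were called higher and 1 lower, and 7 member probe sets were called higher and 1 lower. Leaving out single arrays gave 5 members called higher and 3 lower each time, 10 to 11 probe sets higher and 5 lower, and between 3158 and 3312 genes higher and 3059 and 3270 lower. Of 344 alternative values for the member probe sets, 10 lost a call and 0 reversed a call. Among the 46 related genes, 6 of 774 values reversed where the main or the alternative value was called. These were KLF3 (0.95), CREBBP (-0.38) and SMAD2 (0.032) as means of their probe sets. The others were SIN3A (0.36), SIAH1 (-0.23) and SMAD4 (0.27), where a plain probe set was preferred, and the cause was not tested. Another 30 of the 774 values lost a call, 10 of them for HDAC3 and 6 for CDKN1B, a target counted above as risen. A further 24 gained a call, 7 of them for GAP43. Changes of sign between uncalled values were not counted, as for FBXW7, at -0.13 in the main fit and up to 0.13 elsewhere. With the poly-A spikes as centre, 2686 genes were called higher and 3881 lower, and the median of all genes moved to -0.08.

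The replicate numbers were not shown to pair the arrays, since deviations from the group means correlated at 0.13, 0.15 and -0.05 for numbers 1, 2 and 3. With a replicate block, 5 members were called higher and 3 lower, 11 member probe sets higher and 4 lower, and 3359 genes higher and 3282 lower. The block ended the calls of the dimmer KLF13 probe set (adjusted p = 0.0608), KLF3 (0.0679), HDAC3 (0.0932) and SMAD2 (0.0584), and added GAP43 (0.00835). Signal near background limits KLF2, the dim probe sets of KLF4, KLF5, KLF7 and KLF12, and the size of the KLF4 rise. KLF11 is limited by a value repeated on 4 arrays.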
